A study of Homo sapiens with 6 samples.

Results

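The 40 genes described here encode chaperones and folding enzymes of the endoplasmic reticulum (ER), the sensors of the unfolded protein response, the channel through which proteins enter the ER and the machinery of ER-associated degradation (ERAD). They were chosen by gene symbol, not by a threshold on any measured value, though with earlier results of these data known, and all 40 were found among the 58735 genes of the deposited table. RNA was sequenced from MDA-MB-231, a long-established human breast cancer line that lacks the oestrogen and progesterone receptors and HER2 (triple-negative), in 3 libraries labelled Control and 3 labelled PM2.5 (fine airborne particulate matter), with RNA taken after 48 h of exposure. The series asks how the particles bear on malignant progression of this breast cancer subtype. The sources used here give neither the particle dose nor what the Control cells received. The replicates are described as biological, without saying whether they were separate cultures, so p-values measure the spread between these libraries, which may be technical.

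Proteins that are secreted or bound for membranes enter the ER through the SEC61 channel and fold there with the help of chaperones, among which BiP (HSPA5) is the central HSP70. When unfolded proteins build up, the sensors IRE1 (ERN1), PERK (EIF2AK3) and ATF6 are activated. Cleaved ATF6 and the spliced form of XBP1 then raise transcription of chaperone and ERAD genes through promoter elements known as ERSE, ERSE-II and UPRE, PERK slows translation and favours ATF4, and ERAD carries misfolded proteins back to the cytosol for the proteasome. Cleavage, splicing and phosphorylation of these proteins cannot be seen in gene counts.

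Libraries held 31846136 to 34691009 counts. Control replicate 3 stood apart from the other Control libraries: counts of Control replicates 1 and 2 differed with a chi-square of 5.74 per degree of freedom, against 33.0 and 36.3 between either of them and Control replicate 3. The main counts of called genes, and the changes of most of the genes that rose, are therefore also given without that library. HMOX1 and CYP1A1, which particles and their aromatic compounds are known to induce, had log2 changes of -3.99 ± 0.12 and -1.20 ± 0.24 (SE), and the metallothioneins MT1E, MT1X and MT2A, which metals are known to induce, had changes of -3.00 ± 0.15, -2.39 ± 0.13 and -1.34 ± 0.13, so that all of these stood lower in the PM2.5 group. They were chosen after their values were seen and do not stand for all exposure genes, and 15.8% of all tested genes were called lower. Whether the group labels were exchanged was not tested. Directions are given for the libraries as labelled, and with exchanged labels each rise given here would be a fall. The luminal marker ESR1 and the leukocyte markers PTPRC and CD3E had 0 counts in all 6 libraries, which allows at most 0.0865 to 0.0942 CPM (the usual depth-scaled counts, here with TMM factors) in a library. Of 5 luminal markers 4 stayed under 1 CPM in every library, and the sum over the 4 leukocyte markers was 0.293 to 0.49 CPM in the Control libraries and 1.45 to 2.07 CPM in those labelled PM2.5, most of it LYZ. The fibroblast markers DCN and LUM were also at 0, but not the whole list. The 4 fibroblast markers summed to 18.2 to 26.5 CPM in the Control libraries and 22.0 to 26.1 CPM in those labelled PM2.5. The 4 endothelial markers (PECAM1, CDH5, VWF and KDR) summed to 39.8 to 52.7 CPM and 54.3 to 58.8 CPM. The part of these markers in the results was not tested. VIM and CD44, which mark this line, had means of 2290 and 1525 CPM in the Control libraries.

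Some of these genes carry, near their start, elements through which the response is known to act, so these are shown before the levels. An exact ERSE or ERSE-II, as described below, was found in 10 of the 37 genes with a promoter window. RefSeq windows of 300 bases (250 before to 50 after an annotated start, GRCh38.p14) were found for 37 of the 40 genes, 4 of them with more than 1 start. The ERSE was searched as CCAAT followed, after 9 bases of any kind, by CCACG, on both strands. It occurred in 7 of the 37 genes, against 25 of all 27305 genes in the promoter table (0.0916%). ERSE-II, searched as ATTGG and CCACG with 1 base between them, occurred in 3 genes, against 19 of all (0.0696%). Both elements were already known from chaperone and ERAD genes, so a higher share here was given in advance and is a description only. The promoter table also holds genes that were not tested here. The sites of the 7 genes with an ERSE are shown in the direction of the motif, with its fixed letters in capitals.
HSPA5: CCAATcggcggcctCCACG
HSP90B1, upstream site: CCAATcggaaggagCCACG
HSP90B1, downstream site: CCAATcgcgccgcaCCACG
CALR: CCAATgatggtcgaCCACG
CANX: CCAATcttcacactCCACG
PDIA6: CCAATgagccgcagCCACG
ERO1B: CCAATgaggcgggaCCACG
CRELD2: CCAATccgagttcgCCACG
The HSPA5 site lies at chr9:125241391-125241409 (minus strand), 66 to 48 bases before the start. The HSP90B1 sites lie at chr12:103930216-103930234, 194 to 176 bases before the start, and, in the opposite direction, at chr12:103930321-103930339, 89 to 71 bases before it. The CANX site falls in 3 overlapping windows of that gene, and the PDIA6 site belongs to the more downstream of 2 annotated starts. The ERSE-II sites of the other 3 genes are shown in the same way.
HERPUD1: ATTGGgCCACG
HYOU1: ATTGGaCCACG
SDF2L1: ATTGGtCCACG
HYOU1 holds this ERSE-II site at 2 places in its window. No gene held both an exact ERSE and an exact ERSE-II. With at most 1 mismatch in the 10 fixed letters, an ERSE was found in 13 of the 37 genes, against 1.89% of all genes.

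The 250 bases before the start of HSPA5 (chr9:125241344-125241593, minus strand), HSP90B1 (chr12:103930160-103930409, plus strand) and HERPUD1 (chr16:56931892-56932141, plus strand) are given because these genes are among the 4 that rose most and hold an exact element. PDIA4, also among these 4, held neither an exact ERSE nor an exact ERSE-II in its windows and is not shown. Capitals mark the fixed letters of the exact ERSE or ERSE-II, in either direction.
HSPA5: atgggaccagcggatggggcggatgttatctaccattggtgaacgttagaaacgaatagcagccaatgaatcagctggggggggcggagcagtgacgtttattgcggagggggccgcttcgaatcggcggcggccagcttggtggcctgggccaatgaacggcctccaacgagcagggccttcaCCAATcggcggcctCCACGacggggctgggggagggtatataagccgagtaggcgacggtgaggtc
HSP90B1: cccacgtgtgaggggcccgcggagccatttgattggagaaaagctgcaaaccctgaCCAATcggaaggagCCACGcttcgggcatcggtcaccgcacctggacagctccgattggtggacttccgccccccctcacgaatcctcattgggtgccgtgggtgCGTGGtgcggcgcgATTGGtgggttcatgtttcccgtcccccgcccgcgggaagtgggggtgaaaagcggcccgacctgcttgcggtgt
HERPUD1: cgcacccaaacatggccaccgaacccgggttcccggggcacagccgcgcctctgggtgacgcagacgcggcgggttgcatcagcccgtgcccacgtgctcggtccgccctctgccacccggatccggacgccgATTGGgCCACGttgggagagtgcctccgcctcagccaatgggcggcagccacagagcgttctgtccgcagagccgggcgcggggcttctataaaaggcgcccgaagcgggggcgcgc
The UPRE core TGACGTGG was found in HYOU1, DNAJC10 and SEC62, against 0.927% of all genes, and overlaps an ERSE-II site in HYOU1. The ATF4-type element ATTGCATCA was found in none of the 37 genes, against 0.293% of all genes, which says only that these letters are not in these windows.

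Most of the 40 genes were higher in the libraries labelled PM2.5. All 40 passed the filter on low counts. Calls were made with edgeR (quasi-likelihood test, p-values adjusted by Benjamini-Hochberg over 14975 tested genes, threshold 0.05). Of the 40 genes 28 rose (70%), where 31.9% of all tested genes were called in either direction and 16.1% were called higher. None was called lower, where 15.8% of all tested genes were. At an unadjusted p under 0.05, 1 gene was lower, and DESeq2 and limma-voom also called 0 lower. Of the 12 not called, 9 had a positive and 3 a negative log2 change. The median log2 change was 0.61, against -0.01 over all genes tested.

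A rise of at least 2-fold was called for 6 of the 40 (HSP90B1, PDIA4, HERPUD1, HSPA5, MANF and DNAJC3), where 4.91% of all tested genes were called at that size. All 3 libraries labelled PM2.5 lay above all 3 Control libraries for 29 of the 40 genes and below them for 1, where 21.4% and 22.9% of all tested genes were separated in these ways. Without Control replicate 3, 26 rose and 1 was lower (the SEC61 subunit SEC61B), against 16.9% and 17.4% of all genes tested in that fit. The median was then 0.56, and 4 genes rose at least 2-fold (5.55% of all genes tested in that fit).

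**Figure D1:**
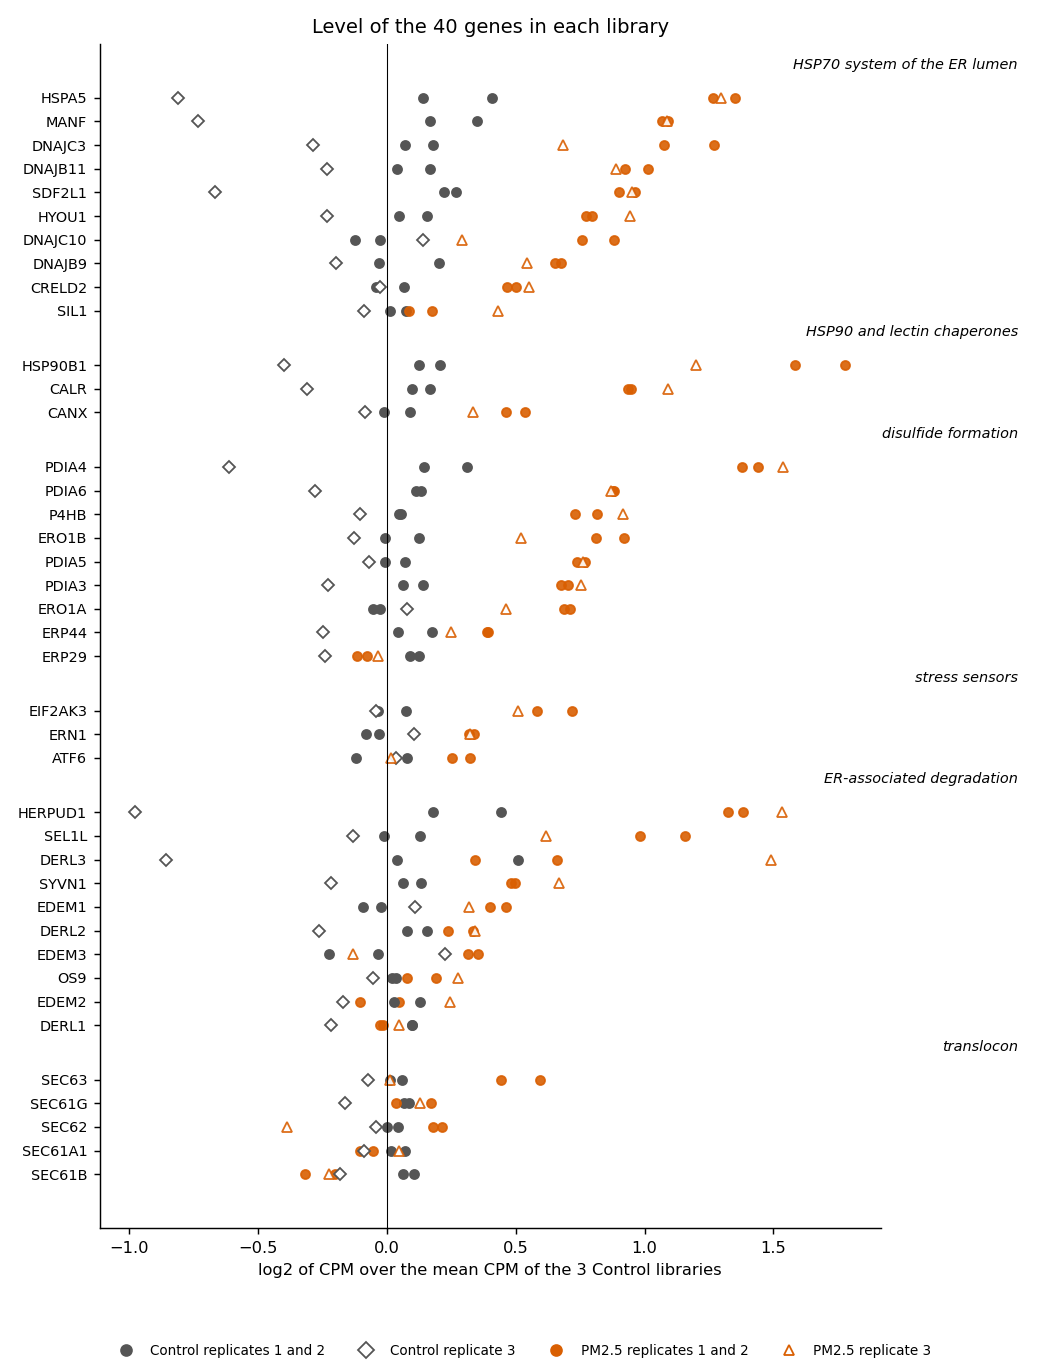
Level of each of the 40 genes in each of the 6 libraries, as log2 of CPM over the mean CPM of the 3 Control libraries (horizontal axis), grouped by role. Grey symbols are Control and orange symbols PM2.5 libraries, with open diamonds for Control replicate 3 and open triangles for PM2.5 replicate 3. The orange symbols lie to the right of the grey ones for 29 genes, and the open diamond is the leftmost grey symbol for 33.

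Together the 40 genes took 1.65%, 1.84% and 1.28% of all counts in the Control libraries and 3.25%, 3.49% and 3.20% in the PM2.5 libraries. HSPA5 alone took 0.305% to 0.657% of counts in the Control libraries and 1.24% to 1.35% in those labelled PM2.5. The rest of the group without HSPA5 took 0.97% to 1.18% and 1.96% to 2.14%. The groups did not overlap on any of these shares. The share of counts from mitochondrial genes did not overlap either, at 3.05%, 3.15% and 3.47% in the Control libraries and 2.74%, 2.78% and 2.68% in those labelled PM2.5, with Control replicate 3 the highest. Its part in the results was not tested.

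**Figure D2:**
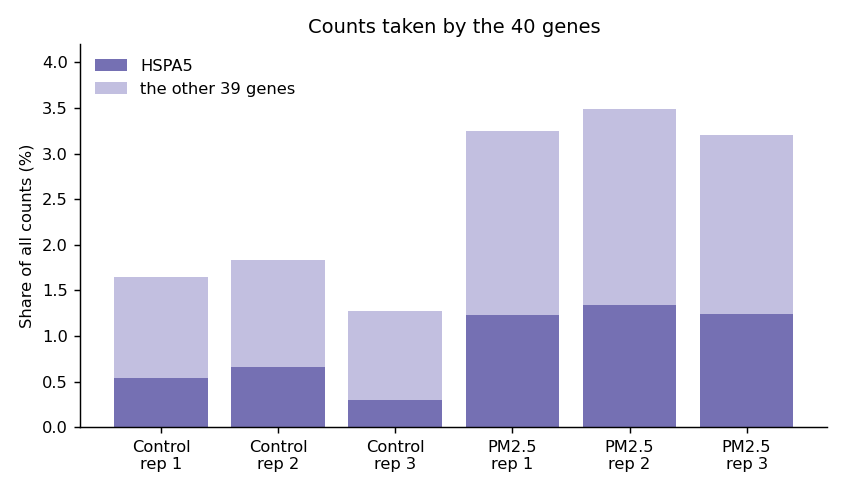
Share of all counts (%, vertical axis, from 0) taken by HSPA5 (dark) and by the other genes of the group (light) in each library. The bars of the PM2.5 libraries reach 3.20% to 3.49% and those of the Control libraries 1.28% to 1.84%, with Control replicate 3 the lowest.

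In the HSP70 system of the ER lumen 9 of 10 genes rose (90%, against 16.1% of all tested genes). The median log2 change was 0.89 (0.73 without Control replicate 3). HSPA5 (BiP), the ER's HSP70 and a repressor of the sensors while they are bound to it, lies on chromosome 9 at 125234853 to 125241330 (GRCh38, minus strand). It held 5641, 6792 and 2919 CPM in the Control libraries (replicates 1 to 3 in order) and 12311, 13066 and 12574 CPM in the PM2.5 libraries. The PM2.5 libraries lay close together above all Control libraries, whereas Control replicate 3 was far below the others. The rise was 2.47-fold (log2 change 1.31 ± 0.21, SE, n = 3 per group, with an adjusted p of 0.000201 by edgeR) and, without Control replicate 3, 2.03-fold (1.02 ± 0.08, adjusted p = 2.15e-06 by edgeR).

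BiP's cofactors had smaller fold changes than BiP. The secreted factor MANF, which binds BiP, had 381, 433 and 204 CPM in the 3 Control libraries and 711, 723 and 721 CPM in the PM2.5 libraries, a 2.12-fold rise. SDF2L1, which acts with the J protein DNAJB11, had 94.8, 97.9 and 51.3 CPM in the Control libraries and 159, 152 and 157 CPM in those labelled PM2.5. In MANF and SDF2L1, as in HSPA5, Control replicate 3 was the low library and the PM2.5 libraries did not overlap with Control. Without it their log2 changes were 0.82 ± 0.08 and 0.69 ± 0.08, instead of 1.08 ± 0.19 and 0.94 ± 0.17 (SE). Of the J proteins, which hand clients to BiP, DNAJC3 had 78.3, 84.5 and 61.1 CPM in the Control libraries and 157, 180 and 120 CPM in those labelled PM2.5 (2.04-fold). DNAJB11 rose 1.92-fold, the reductase-linked DNAJC10 1.58-fold and DNAJB9, which assists BiP and represses IRE1, 1.54-fold. HYOU1 and SIL1 are nucleotide exchange factors of BiP: HYOU1 averaged 533 ± 71.7 and 953 ± 61.9 CPM (SD, n = 3 per group) and rose 1.79-fold, whereas SIL1, with means of 40.3 ± 2.32 and 47.5 ± 6.03 CPM, was not called (log2 change 0.24 ± 0.11, SE). CRELD2, a cysteine-rich ER protein with EGF-like domains, rose 1.42-fold from 23.8 to 25.7 CPM in the Control libraries to 33.9 to 36.0 CPM, with Control replicate 3 at 24.1 CPM among the others. Without Control replicate 3 DNAJC3 rose 1.87-fold, DNAJB11 1.79-fold, HYOU1 1.66-fold, DNAJC10 1.67-fold, DNAJB9 1.45-fold and CRELD2 1.41-fold. With GC content and length trends removed the log2 change of DNAJC10 was 0.26 (edgeR adjusted p of 0.0216), instead of 0.66.

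HSP90B1 (GRP94), the HSP90 of the ER, had the largest log2 change of the 40 genes. It lies on chromosome 12 at 103930107 to 103953645 (plus strand), and held 1181, 1250 and 821 CPM in the 3 Control libraries and 3252, 3720 and 2491 CPM in the PM2.5 libraries. Its lowest PM2.5 library, replicate 3, was still well above the highest Control library. The log2 change was 1.54 ± 0.16 (SE, n = 3 per group, with an adjusted p of 2.61e-06 by edgeR) and 1.37 ± 0.13 without Control replicate 3. The lectin chaperones calreticulin and calnexin hold newly made glycoproteins. Calreticulin (CALR) had 1539, 1615 and 1161 CPM in the Control libraries and 2751, 2777 and 3063 CPM in those labelled PM2.5, and rose 1.99-fold. The membrane-bound calnexin (CANX) rose 1.36-fold, from 1753 to 1982 CPM in the Control libraries to 2348 to 2698 CPM, also with no overlap. Without Control replicate 3 CALR rose 1.81-fold and CANX 1.32-fold.

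Among the enzymes of disulfide formation 8 of 9 rose (88.9%, against 16.1% of all tested genes). The median log2 change was 0.76 (0.70 without Control replicate 3). PDIA4 (ERp72) lies on chromosome 7 at 149003062 to 149028641 (minus strand) and had 1094, 1226 and 647 CPM in the 3 Control libraries and 2573, 2683 and 2875 CPM in the PM2.5 libraries. It rose 2.74-fold (log2 change 1.45 ± 0.17, SE, n = 3 per group, with an adjusted p of 1.04e-05 by edgeR), or 2.33-fold without Control replicate 3. The groups did not overlap and Control replicate 3 was again the low library. The other isomerases rose less and more evenly: PDIA6 1.83-fold, P4HB, which is also a subunit of collagen prolyl hydroxylase, 1.77-fold, PDIA5 1.69-fold and PDIA3, the partner of calnexin and calreticulin, 1.64-fold. PDIA6 had 276, 280 and 211 CPM in the Control libraries and 471, 470 and 468 CPM in those labelled PM2.5. Exons of ATP6V1C2 cover 25.2% of its exonic bases. Without Control replicate 3 the rises of P4HB, PDIA6, PDIA5 and PDIA3 were 1.70-fold, 1.68-fold, 1.65-fold and 1.52-fold.

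The oxidases that restore the isomerases also rose. ERO1B rose 1.69-fold, from 35.9, 39.3 and 33.1 CPM to 63.3, 68.3 and 51.8 CPM (1.62-fold without Control replicate 3). ERO1A, which is also known as a hypoxia target, rose 1.54-fold and was highest among the Control libraries in replicate 3, at 327 CPM against 298 and 304 CPM. Without Control replicate 3 its log2 change was 0.66 ± 0.09, instead of 0.62 ± 0.10 (SE). ERP44, which retains the oxidases in the early secretory pathway, averaged 113 ± 16.5 and 143 ± 7.87 CPM (SD, n = 3 per group) and rose 1.27-fold. Leaving out PM2.5 replicate 1 or 2 ended this call (edgeR adjusted p of 0.0944 and 0.0682), as did removing trends on GC content and length (0.279), and without Control replicate 3 the rise was 1.17-fold. ERP29, a redox-inactive relative of the isomerases, was not called, at 203, 208 and 162 CPM against 181, 176 and 186 CPM (log2 change -0.08 ± 0.10, SE).

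Of the 3 sensors 2 rose (66.7%, against 16.1% of all tested genes), with a median log2 change of 0.33 (0.38 without Control replicate 3). PERK (EIF2AK3) averaged 14.2 ± 0.655 CPM in the Control libraries (SD, n = 3) and had 21.3, 23.4 and 20.3 CPM in those labelled PM2.5, a 1.52-fold rise (log2 change 0.58 without Control replicate 3) with no overlap and with Control replicate 3 close to the others. IRE1 (ERN1) averaged 131 ± 8.96 and 165 ± 1.23 CPM (SD, n = 3 per group) and rose 1.25-fold, with an edgeR adjusted p of 0.0114. Leaving out Control replicate 1, Control replicate 2 or PM2.5 replicate 1 ended the ERN1 call (edgeR adjusted p of 0.063, 0.0788 and 0.0668), and without Control replicate 3 its log2 change was 0.38 ± 0.07. ATF6 overlapped between the groups, at 60.5 to 69.3 CPM and 66.5 to 82.1 CPM, and was not called (log2 change 0.20 ± 0.10, SE, edgeR adjusted p of 0.148). Without PM2.5 replicate 3 it was called higher (edgeR adjusted p of 0.0471).

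Of the 10 ERAD genes 5 rose (50%, against 16.1% of all tested genes), or 4 without Control replicate 3. The median log2 change was 0.35 (0.38 without that library). HERPUD1, a membrane protein that gathers the ubiquitin ligase complex, lies on chromosome 16 at 56932048 to 56944863 (plus strand). It had 338, 406 and 152 CPM in the 3 Control libraries and 748, 778 and 864 CPM in the PM2.5 libraries. The groups were separate, and among the 40 genes the widest gap of Control replicate 3 from the other Control libraries was here, at 0.408 of their mean. The rise was 2.67-fold (log2 change 1.42 ± 0.23, SE, n = 3 per group, with an adjusted p of 0.000221 by edgeR) and 2.14-fold without Control replicate 3 (1.10 ± 0.09). The core of the ligase is SYVN1 (HRD1) with its adaptor SEL1L. SEL1L had 173, 191 and 159 CPM in the Control libraries and 345, 389 and 268 CPM in those labelled PM2.5 and rose 1.91-fold, and SYVN1, with means of 133 ± 16.5 and 194 ± 14.1 CPM (SD, n = 3 per group), rose 1.47-fold. Without Control replicate 3 their rises were 1.83-fold and 1.37-fold.

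The lectins and mannosidase-like proteins that mark glycoproteins for disposal showed small differences. EDEM1 rose 1.31-fold, from 113, 118 and 130 CPM to 159, 166 and 150 CPM (log2 change 0.39, and 0.45 without Control replicate 3), while EDEM2, EDEM3 and the lectin OS9 were not called (log2 changes 0.07 ± 0.11, 0.20 ± 0.14 and 0.18 ± 0.09, SE). OS9 was called higher once GC and length trends were removed (log2 change 0.21, edgeR adjusted p of 0.0313). Of the derlins, which take part in moving clients out of the ER, DERL2 rose 1.24-fold to 67.6 ± 2.74 CPM (SD, n = 3). DERL2 had the largest adjusted p of the 28: it was 0.0442 by edgeR and 0.116 without Control replicate 3, and the call was lost in 7 of 14 alternatives. DERL1 averaged 73.95 ± 8.998 and 74.0 ± 2.06 CPM (SD; log2 change 0.00 ± 0.10, SE). DERL3 was near the limit of measurement at 0.263 to 0.679 and 0.605 to 1.34 CPM (log2 change 0.91 ± 0.48, SE, not called), and exons of SMARCB1 cover 77% of its exonic bases, so its own level is uncertain.

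Of the 5 genes of the translocon 1 rose (20%, near the 16.1% of all tested genes called higher), with a median log2 change of 0.03. Without Control replicate 3 none rose and 1 fell (median 0.00). None of the SEC61 subunits passed the test with all libraries: the log2 changes of the channel SEC61A1 and the small subunits SEC61B and SEC61G were -0.04 ± 0.09, -0.25 ± 0.10 and 0.11 ± 0.10 (SE). SEC61B had 142, 138 and 116 CPM in the Control libraries and 115, 106 and 113 CPM in those labelled PM2.5, and was the gene whose PM2.5 libraries all lay below Control. Its adjusted p by edgeR was 0.0658, and 0.00523 without Control replicate 3, where the log2 change was -0.33 ± 0.08. The post-translational import factors SEC62 and SEC63 were spread widely among the libraries labelled PM2.5: SEC62 had 75.0, 76.9 and 50.6 CPM against 64.3 to 68.3 CPM in the Control libraries and was not called, and SEC63 had 60.8, 67.5 and 45.1 CPM against 42.5 to 46.6 CPM. SEC63 was called (1.29-fold, edgeR adjusted p of 0.035) although the groups overlapped, and the call was lost in 7 of 14 alternatives, among them limma-voom (0.051) and the fit without Control replicate 3 (0.0847).

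**Figure D3:**
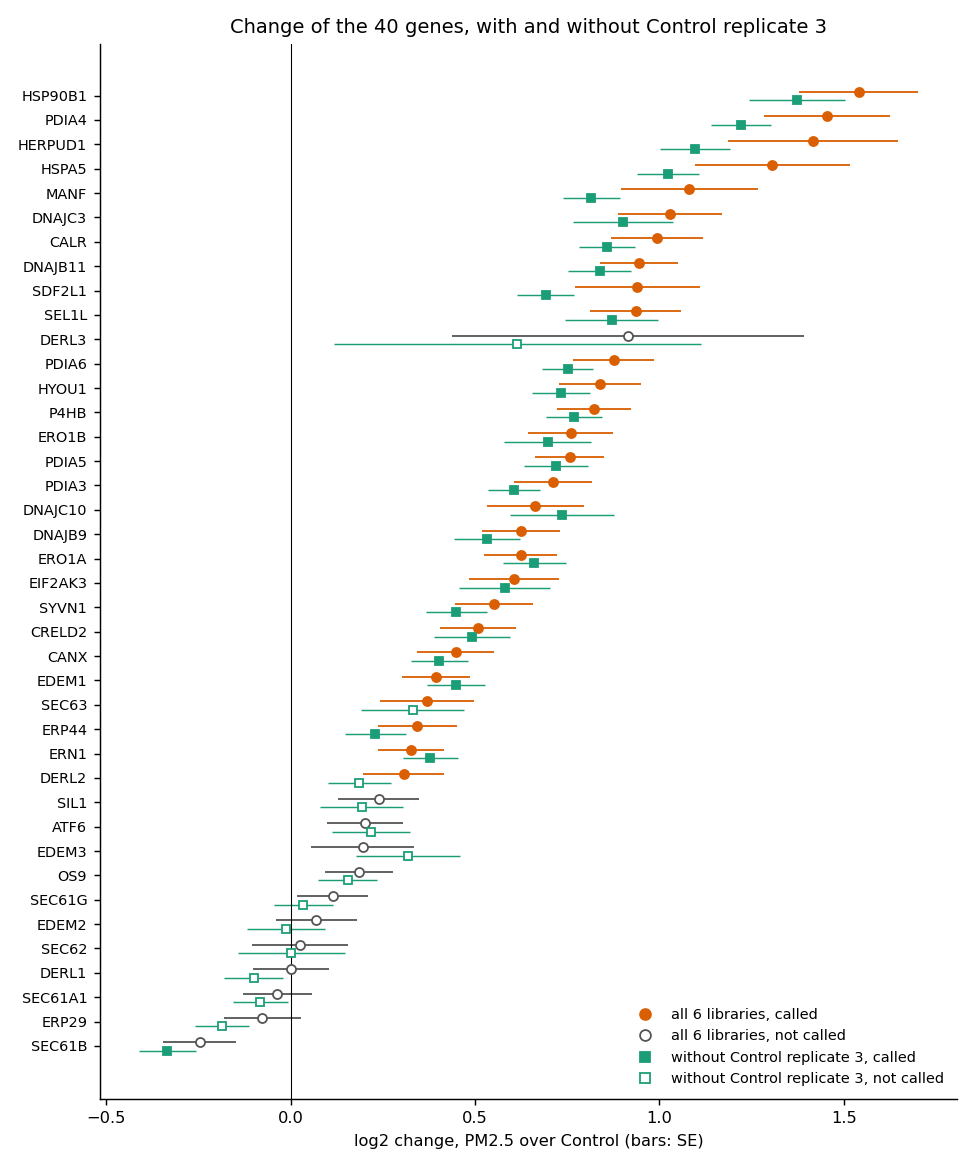
Log2 change of each gene, PM2.5 over Control, with SE as bars, from all 6 libraries (circles) and without Control replicate 3 (squares); filled symbols passed the adjusted p of 0.05. With all libraries 28 circles are filled, all to the right of 0, and without Control replicate 3 there are 27 filled squares, SEC61B being the 1 on the left.

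Compared per length (CPM per kilobase of the deposited gene length, which counts every annotated exon and so understates genes with long unused exons), HSPA5 was the most abundant of the 40 in each group, at a mean of 1309 in the Control libraries and 3237 in those labelled PM2.5. CALR followed, at 530 and 1055. In the Control libraries PDIA4 (302), CANX (298) and HSP90B1 (230.9) came next, and their order is within the spread, since PDIA4 ran from 197 to 374, CANX from 281 to 318 and HSP90B1 from 175 to 266. In the libraries labelled PM2.5 the ranges of PDIA4 (785 to 877) and HSP90B1 (531 to 792) lay above that of CANX (377 to 433). The sensors ERN1, ATF6 and EIF2AK3 were at 12.1, 8.33 and 2.62 in the Control libraries.

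Control replicate 3 was the lowest Control library for 33 of the 40 genes (82.5%), where it was lowest for 39.4% of all tested genes. Over the 160 genes of the other lists described below it was lowest for 64.4%. These lists ran from 50% (ER calcium store) to 90% (ER to Golgi transport). Of the 40 genes, Control replicate 3 was the highest for 5, DNAJC10, ERO1A, ERN1, EDEM1 and EDEM3. Its level was under 0.6 of the mean of Control replicates 1 and 2 for 6 genes: HERPUD1, DERL3, HSPA5, MANF, SDF2L1 and PDIA4. Of the 28 genes that rose it was the lowest Control library for 23, and of the 12 not called for 10. Across the 40 genes the log2 ratio of Control replicate 3 to the other Control libraries correlated with the log2 change at Pearson r = -0.61, a description only, since Control replicate 3 enters both quantities.

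The libraries labelled PM2.5 differed among themselves in another way. PM2.5 replicate 3 was the lowest of its group for 17 of the 40 genes and the highest for 16. Over the 12735 tested genes with a mean of at least 1 CPM, this library was the lowest for 4808 and the highest for 4959. It was the lowest for HSP90B1, SEL1L, DNAJC3, DNAJC10, SEC62, SEC63 and EDEM3, at 0.667 to 0.731 of the mean of the other 2 libraries, and the highest for DERL3, SIL1 and EDEM2, at 1.97, 1.23 and 1.21 of it, and for HERPUD1, PDIA4, CALR, HYOU1 and SYVN1, at 1.09 to 1.13. The GC content of the longest GENCODE 29 transcript moved with this: its median was 39.4% over the 17 genes and 53.9% over the 16, and the log2 ratio of PM2.5 replicate 3 to the others correlated with GC content at r = 0.73 over the 40 genes and at r = 0.50 over the 12735 tested genes with a mean of at least 1 CPM. These points share libraries and are genes, not replicates. The log2 change between the groups correlated with GC content at r = 0.11 over the 40 genes and at r = -0.16 over the 12735. With GC and transcript length trends taken out of each library, a fit chosen after seeing the data, 27 of the 40 rose and 0 were lower by edgeR: ERP44, DERL2 and SEC63 were no longer called, and SIL1 (log2 change 0.36, adjusted p of 0.0026) and OS9 were called. In that fit the log2 changes of SEL1L, ERO1B and ERO1A were 0.70, 0.53 and 0.44, instead of 0.94, 0.76 and 0.62. Others grew, such as MANF from 1.08 to 1.24 and CALR from 0.99 to 1.13.

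**Figure D4:**
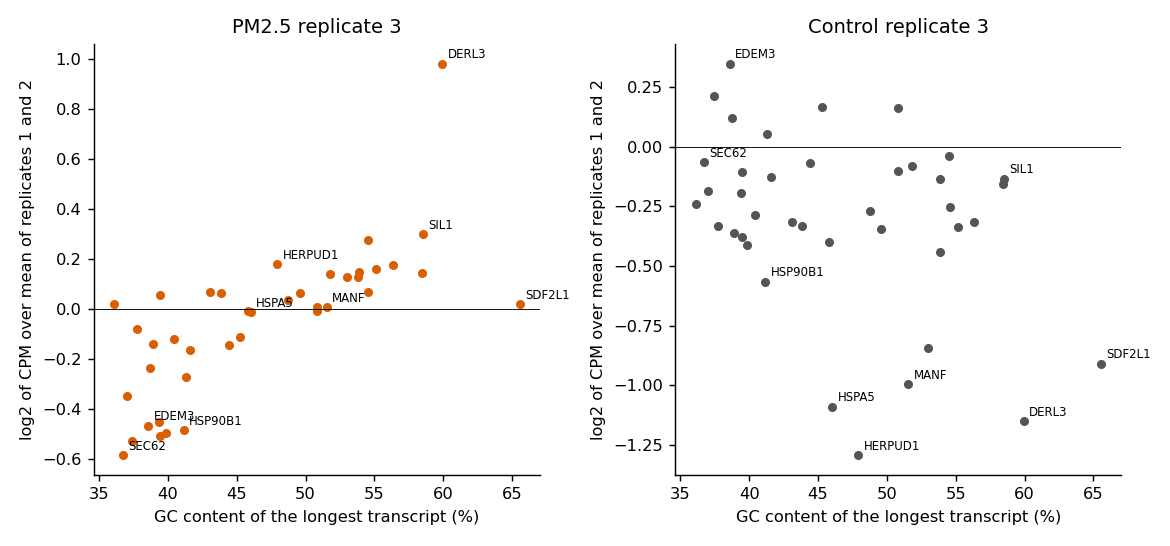
Log2 of the level in PM2.5 replicate 3 (left) and Control replicate 3 (right) over the mean of replicates 1 and 2 of the same group, against the GC content (%) of the longest transcript, 1 point a gene. On the left the points climb with GC content (r = 0.73, n = 40), and on the right HERPUD1, DERL3, HSPA5, MANF and SDF2L1 lie lowest at middle to high GC content (r = -0.36).

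All 10 genes with an exact ERSE or ERSE-II in a start window rose, with a median log2 change of 0.91 (0.74 without Control replicate 3) and a range from 0.45 in CANX to 1.54 in HSP90B1. Of the 27 with neither, 17 rose and 10 did not pass, with a median of 0.37 (0.38 without Control replicate 3). PDIA4, MANF and DNAJC3 had neither exact element and rose more than 2-fold. Without Control replicate 3 their rises were 2.33-fold, 1.76-fold and 1.87-fold. DNAJC3 held an ERSE with 1 mismatch, 135 to 117 bases before the start. Of the 34 genes outside the group that hold an exact ERSE or ERSE-II, 19 were tested, of which 6 rose (31.6%, against 16.1% of all tested genes) and 0 were lower by edgeR, DESeq2 or limma-voom, with 1 lower at an unadjusted p under 0.05. Their median log2 change was 0.21. The 6 were SHCBP1, TRIM5, PLS3, SYNPO, RAD9A and XBP1, with log2 changes of 2.41, 0.94, 0.83, 0.82, 0.55 and 0.39. XBP1 thus rose least among them. Those that did not pass include the ER genes SERP1 and FICD, at 0.21 ± 0.12 and 0.21 ± 0.13 (SE), and ALG12, at 0.32 ± 0.14 (SE). The link between element and level was not tested, and the elements were searched in these windows only.

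**Figure D5:**
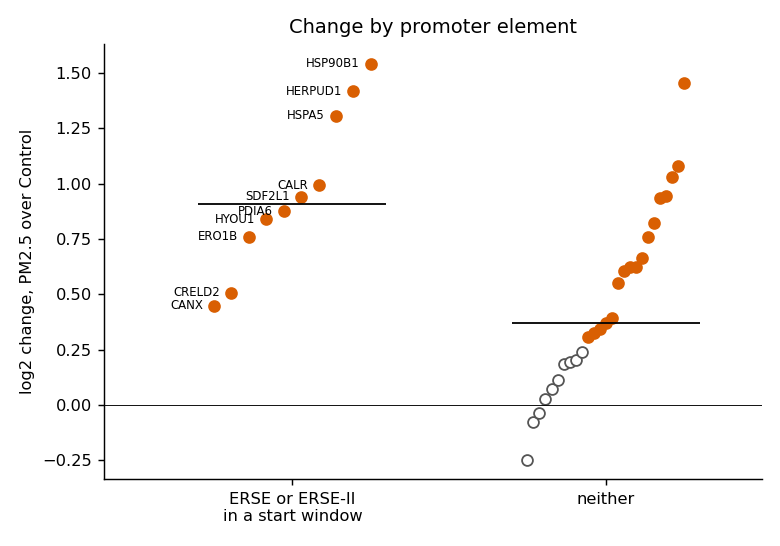
Log2 change, PM2.5 over Control, of the 37 genes with a start window, split by whether an exact ERSE or ERSE-II is present; orange points rose, open points did not pass the test, and lines are medians. All 10 points on the left are orange and lie from 0.45 to 1.54, and 10 of the 27 on the right are open.

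Other genes of the response moved in part. Over all tested genes 16.1% were called higher and 15.8% lower, or 16.9% and 17.4% without Control replicate 3. Shares of the lists below are given in brackets. Of 13 transcription factors and activating enzymes of the response 4 rose (30.8%) and 0 were lower by edgeR (0 at an unadjusted p under 0.05 and by DESeq2 and limma-voom). The median log2 change was 0.11, or 0.04 without Control replicate 3. XBP1, whose spliced form is the IRE1 branch's factor, had 237, 244 and 177 CPM in the Control libraries and 285, 276 and 304 CPM in those labelled PM2.5 and rose 1.31-fold (edgeR adjusted p of 0.0158, and 0.0538 without PM2.5 replicate 3). The ER-anchored factors CREB3L1 and CREB3L2 rose 1.63-fold and 1.51-fold. ATF4, which is controlled largely at translation, averaged 459 ± 67.6 and 513 ± 22.4 CPM (SD, n = 3 per group) and was not called, nor was ATF6B (log2 change -0.09 ± 0.10, SE). The death-linked factor CHOP (DDIT3) had 250, 300 and 120 CPM in the Control libraries and 371, 392 and 381 CPM in those labelled PM2.5. It rose 1.71-fold (edgeR adjusted p of 0.0108, log2 change 0.47 without Control replicate 3), but was not called by DESeq2 (adjusted p of 0.0679).

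Of 18 tested genes of the PERK and ATF4 branch 8 rose (44.4%) and 3 fell (16.7%), with a median log2 change of 0.29. Without Control replicate 3 the numbers were 7 and 3, with a median of 0.17. CHAC1, which degrades glutathione, rose 2.30-fold and the serine synthesis enzyme PSAT1 1.64-fold, while the transcription factor CEBPB and the amino acid transporter subunit SLC3A2 fell by 1.001 and 0.74 on the log2 scale. Of 25 other ERAD components 6 rose (24%) and 4 fell (16%), with a median of 0.02, or 5 and 5 without Control replicate 3 (median 0.04). Over all tested genes 16.1% were called higher and 15.8% lower, so the share that fell was that of all genes. The ubiquitin-conjugating enzyme UBE2J1 rose 1.74-fold, the ATPase VCP, which extracts clients from the membrane, 1.48-fold and ERLIN1 1.31-fold, while FOXRED2 fell by 0.93 on the log2 scale.

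Of 19 other tested disulfide and prolyl isomerases of the ER 10 rose (52.6%) and 1 fell (5.26%), with a median of 0.29. Without Control replicate 3 the numbers were 9 and 1 (median 0.24). The prolyl isomerase FKBP11 rose 2.34-fold to 5.61 ± 1.03 CPM, TXNDC5 1.68-fold to 8.43 ± 0.41 CPM (SD, n = 3) and the sulfhydryl oxidase QSOX1 1.48-fold, and SELENOM fell by 0.56 on the log2 scale. Of 22 genes of N-glycosylation and the calnexin cycle 10 rose (45.5%) and 4 fell (18.2%), with a median of 0.22. Without Control replicate 3 the numbers were 9 and 6 (median 0.18). Among the rises were the oligosaccharyltransferase subunits MAGT1 (1.64-fold) and RPN2 (1.49-fold), the folding sensor UGGT1 (1.46-fold) and malectin (MLEC, 1.40-fold).

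Of 21 genes of signal recognition, translocation and signal peptidase 5 rose (23.8%) and 2 fell (9.52%), with a median of 0.17. Without Control replicate 3 the numbers were 4 and 3 (median 0.07). TRAM2 and the peptidase subunit SPCS3 rose 1.28-fold and 1.39-fold, and SPCS1 and the signal recognition particle protein SRP14 fell by 0.47 and 0.37 on the log2 scale. Of 20 genes of ER to Golgi transport 10 rose (50%) and 2 fell (10%), with a median of 0.23. Without Control replicate 3 the numbers were 8 and 2 (median 0.17). Among those called were the cargo receptor LMAN1 (1.62-fold) with its partner MCFD2 (1.63-fold), the coat protein SEC24A (1.47-fold) and SEC23B, which fell by 0.40. Of 13 tested genes of the ER calcium store 6 rose (46.2%) and 1 fell (7.69%), with a median of 0.24. Without Control replicate 3 the numbers were 5 and 1 (median 0.21). The calcium pump ATP2A2 (SERCA2) averaged 326 ± 34.9 and 617 ± 38.3 CPM (SD, n = 3 per group) and rose 1.89-fold, the calcium-binding RCN2 and RCN1 1.56-fold and 1.37-fold, and the release channel ITPR1 fell by 0.78 on the log2 scale. Of 6 ER-phagy receptors TEX264 and CALCOCO1 (33.3%) fell by 0.74 and 0.46. By edgeR or limma-voom 0 rose (1 by DESeq2, 1 at an unadjusted p under 0.05, and 1 without Control replicate 3). Over these 157 tested genes outside the group 59 rose (37.6%, against 16.1% of all tested genes) and 19 fell (12.1%, against 15.8%). Without Control replicate 3 the numbers were 52 and 23. The median log2 change with all libraries was 0.17.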

How the data were processed

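Gene expression was measured by RNA sequencing (NEBNext Ultra libraries on a NovaSeq instrument, per the labels' protocols) in 6 libraries, grouped by the treatment given in the labels. The authors deposited raw counts per gene with gene symbols, coordinates and lengths, per the file headers. The submitters' processing notes name GRCh38. Which aligner, counter and strand setting were used is not given in the sources used here. For all 40 genes the deposited gene length equalled the union of GENCODE 29 exons. Columns were matched to libraries by title.

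The fit used edgeR 4.0.16 (R 4.3.3): filterByExpr (minimum count 10, minimum total 15) kept 14975 genes, TMM factors were applied, and groups were compared with the two-sided quasi-likelihood test, with group as the only term and Benjamini-Hochberg adjustment over all tested genes at 0.05. SEs were derived from each log2 change and its F statistic. Alternatives were DESeq2 1.42.0, limma-voom (limma 3.58.1), other size factors, other filters, a replicate block, leaving out each library, and removal of GC content and length trends. The fit was tried on simulated counts that held neither an outlying library nor a GC trend, so this cannot show how it handles those. The floors (3 counts) cover counting error only, whereas the SEs also hold the spread between libraries.

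The 40 genes and the other gene lists (160 different genes beside 21 markers, all matched to the table) were chosen with earlier results of these data known. Every one of the 40 genes is named, and of each other list up to 4 called genes with the smallest p, plus XBP1, ATF4, DDIT3 and ATF6B. SERP1, FICD, ALG12, SHCBP1, TRIM5, PLS3, SYNPO, RAD9A, HMOX1, CYP1A1 and the metallothioneins were chosen after their values were seen. Promoter windows are from RefSeq (GRCh38.p14), and all motif shares are descriptions. Protein sequences were not used here.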

Additional observations from a re-analysis of the deposited data

How the results depend on the processing

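Across 14 alternatives the number of the 40 genes called higher ran from 24 to 28 and the number of all genes called from 3245 to 5475, both within 1.5 times of the reported 28 and 4775. Of the 28 genes that rose, 24 were called in every alternative, and ERP44, ERN1, DERL2 and SEC63 were not. The number called lower was 0 to 1 when each library was left out in turn, the 1 being SEC61B without Control replicate 3, and 0 in the other alternatives. Among the 40 genes the sign turned only for genes that were not called. Leaving out each library in turn gave log2 changes of -0.100 to 0.0504 for DERL1 (negative without Control replicate 3 and, at -0.0234, without PM2.5 replicate 3), -0.0287 to 0.151 for EDEM2 (-0.0122 without Control replicate 3, lowest without PM2.5 replicate 3) and -0.0761 to 0.195 for SEC62 (-0.0499 without PM2.5 replicate 1, lowest without PM2.5 replicate 2). With no filter on low counts DERL1 was at -0.00916. After removal of GC and length trends DERL1 was at -0.0988, EDEM3 at -0.0255, ERP29 at 0.0498, SEC61A1 at 0.00122 and SEC62 at -0.25, and ATF4 was called higher (0.29). The cause was not tested. Libraries with the same replicate number did not deviate together (correlations of -0.00, -0.05 and -0.12 for numbers 1 to 3, and not every library correlated best with its own number). With 3 libraries a group and Control replicate 3 apart from the others, these values cannot decide whether the replicates were paired. With the replicate number as a block 27 of the 40 genes rose and 0 were lower, of 3777 genes called, and DERL2 was lost (log2 change 0.32, adjusted p = 0.0701 by edgeR). Depth was lowest for DERL3, with 9 to 46 counts a library.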
